A study of Mus musculus with 12 samples.

Results

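Macrophages are phagocytes that reside in most tissues. In adipose tissue they clear dead cells and debris, take up lipid and iron, sense microbial products and signal to neighbouring cells through chemokines and complement. They differentiate and survive under the receptor encoded by Csf1r, read antibody-coated and damaged targets through Fc and innate receptors that share the adapters Fcer1g and Tyrobp, and kill or digest cargo with an oxidase, lysozyme and cathepsins. Mice keep resident macrophages in brown adipose tissue (BAT), which makes heat, and in subcutaneous white adipose tissue (sWAT), which stores fat and takes on brown-like features in cold.

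The genes described here are 33 listed names of macrophage and phagocyte genes. They were taken by name, and the list was made with earlier results of these data known. The count table held 32 of them among its 23163 genes, since Emr1 is the older symbol of Adgre1. All 32 passed the filter on low counts in every comparison, and their counts ranged from 5 to 47724 reads per library. The 4 groups compared were all of male wild-type C57Bl/6 mice aged 8 to 12 weeks, held for 72 hours at 4 °C (cold) or at 30 °C (thermoneutral, where a mouse needs no added heat). The groups are BAT cold, BAT thermoneutral, sWAT cold and sWAT thermoneutral, with 3 libraries of total RNA in each, and the labels name no transgene, deletion or drug. The labels give 10 mice at each temperature and do not say whether a library is 1 animal or a pool, so p-values measure the spread between these libraries. The labels mark BAT cold library 1 and sWAT cold library 2 as merged and do not say what was merged. Titles give each library an experiment number, 1 to 3, in all 4 groups and do not say what the libraries of an experiment share, so a fit with that number as a block is given beside the results whose call it changes.

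Promoters are printed for 4 members, because the C1q genes moved together in sWAT while the oxidase subunits Cyba and Cybb did not. Each window runs from 250 bases before to 50 bases after a RefSeq start on GRCm38.p6, read 5′ to 3′ on the gene's own strand. Capitals mark the letters GAGGAAGT or their reverse complement ACTTCCTC, searched on both strands as a form of the site bound by PU.1, the macrophage transcription factor encoded by Spi1. C1qa, C1qb and C1qc, the subunits of the complement starter C1q, lie on the minus strand of chromosome 4, at 136895917 to 136898803, 136880129 to 136886187 and 136889804 to 136893065 in GENCODE M21. Cyba lies on the minus strand of chromosome 8 at 122424776 to 122432930 and Cybb on the minus strand of chromosome X at 9435252 to 9487771, and the RefSeq start used for Cybb falls inside that span.
C1qb, chr4:136886151-136886450: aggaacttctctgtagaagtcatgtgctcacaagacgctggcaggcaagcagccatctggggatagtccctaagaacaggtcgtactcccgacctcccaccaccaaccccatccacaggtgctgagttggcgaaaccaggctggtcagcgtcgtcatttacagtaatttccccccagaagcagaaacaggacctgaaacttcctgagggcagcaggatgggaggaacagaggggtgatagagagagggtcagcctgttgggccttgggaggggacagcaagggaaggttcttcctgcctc
C1qc, chr4:136892865-136893164: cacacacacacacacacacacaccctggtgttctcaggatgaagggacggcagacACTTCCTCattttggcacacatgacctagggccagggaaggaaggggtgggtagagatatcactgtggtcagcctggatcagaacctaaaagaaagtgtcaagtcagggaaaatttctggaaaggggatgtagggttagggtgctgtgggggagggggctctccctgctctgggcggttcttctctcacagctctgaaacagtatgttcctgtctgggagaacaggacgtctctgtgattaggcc
Cyba, chr8:122432891-122433190: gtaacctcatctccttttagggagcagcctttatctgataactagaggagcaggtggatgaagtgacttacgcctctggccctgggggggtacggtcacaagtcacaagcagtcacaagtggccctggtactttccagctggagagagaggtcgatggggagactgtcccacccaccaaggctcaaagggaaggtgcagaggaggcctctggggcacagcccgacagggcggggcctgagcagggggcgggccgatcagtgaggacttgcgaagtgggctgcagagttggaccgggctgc
Cybb, chrX:9469275-9469574: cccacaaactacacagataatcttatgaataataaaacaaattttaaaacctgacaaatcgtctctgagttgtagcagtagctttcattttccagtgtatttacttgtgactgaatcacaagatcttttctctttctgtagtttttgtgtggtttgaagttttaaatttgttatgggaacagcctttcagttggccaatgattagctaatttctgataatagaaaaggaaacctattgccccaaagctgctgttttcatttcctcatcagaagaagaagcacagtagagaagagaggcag
The window of C1qc holds the letters and the other 3 do not. Among the members, 24 had a window, 25 windows in all, and 3 windows held the letters (C1qc, Ctss and Retnla). That is 12% against 3.20% of all 32851 windows, a share that rests on 3 windows and was not tested. No start was found for C1qa in the source used, so it has no window. GC content was 56.3% in the C1qb window, 53.3% in C1qc and 60.7% in Cyba, against 35.3% in Cybb.

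Library totals ranged from 27117934 to 56243016 counts. The composition of the sWAT thermoneutral libraries was unlike that of the others: mitochondrially encoded genes took 19.7% to 33.6% of counts in sWAT cold libraries, against 0.181% to 0.307% in sWAT thermoneutral libraries, and ribosomal protein genes took 1.1% to 1.82%, against 7.16% to 8.13%. Regressed on GC content, log2 CPM had a slope of −0.47 to 0.17 per 10 percentage points in sWAT cold libraries and 0.80 to 1.37 in sWAT thermoneutral libraries. Temperature and library composition cannot be told apart in sWAT, and values with a correction for GC content and transcript length, an alternative chosen after seeing the data, stand beside the main ones for every member called in sWAT. In BAT, cold library 3 had 53.8% mitochondrial counts against 20.0% to 24.4% in the other cold libraries, and thermoneutral library 3 had 17.6% against 34.8% to 37.7%. Ucp1, the uncoupling protein of brown fat, had 23105, 22519 and 20081 CPM in BAT cold libraries, against 1419.7, 1816 and 2554 CPM in BAT thermoneutral libraries. It had 3212, 13215 and 11606 CPM in sWAT cold libraries, against 377, 106 and 41.2 CPM in sWAT thermoneutral libraries. Adipoq, an adipocyte hormone, was at 449 to 2553 CPM in all 12 libraries. CPM here and below are counts scaled to library size with TMM factors, and triplets are libraries 1, 2 and 3 in that order. Each log2 fold change ± SE is from the edgeR quasi-likelihood fit, its p is adjusted over all genes by the Benjamini-Hochberg method, and a gene is called at an adjusted p under 0.05.

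**Figure D1:**
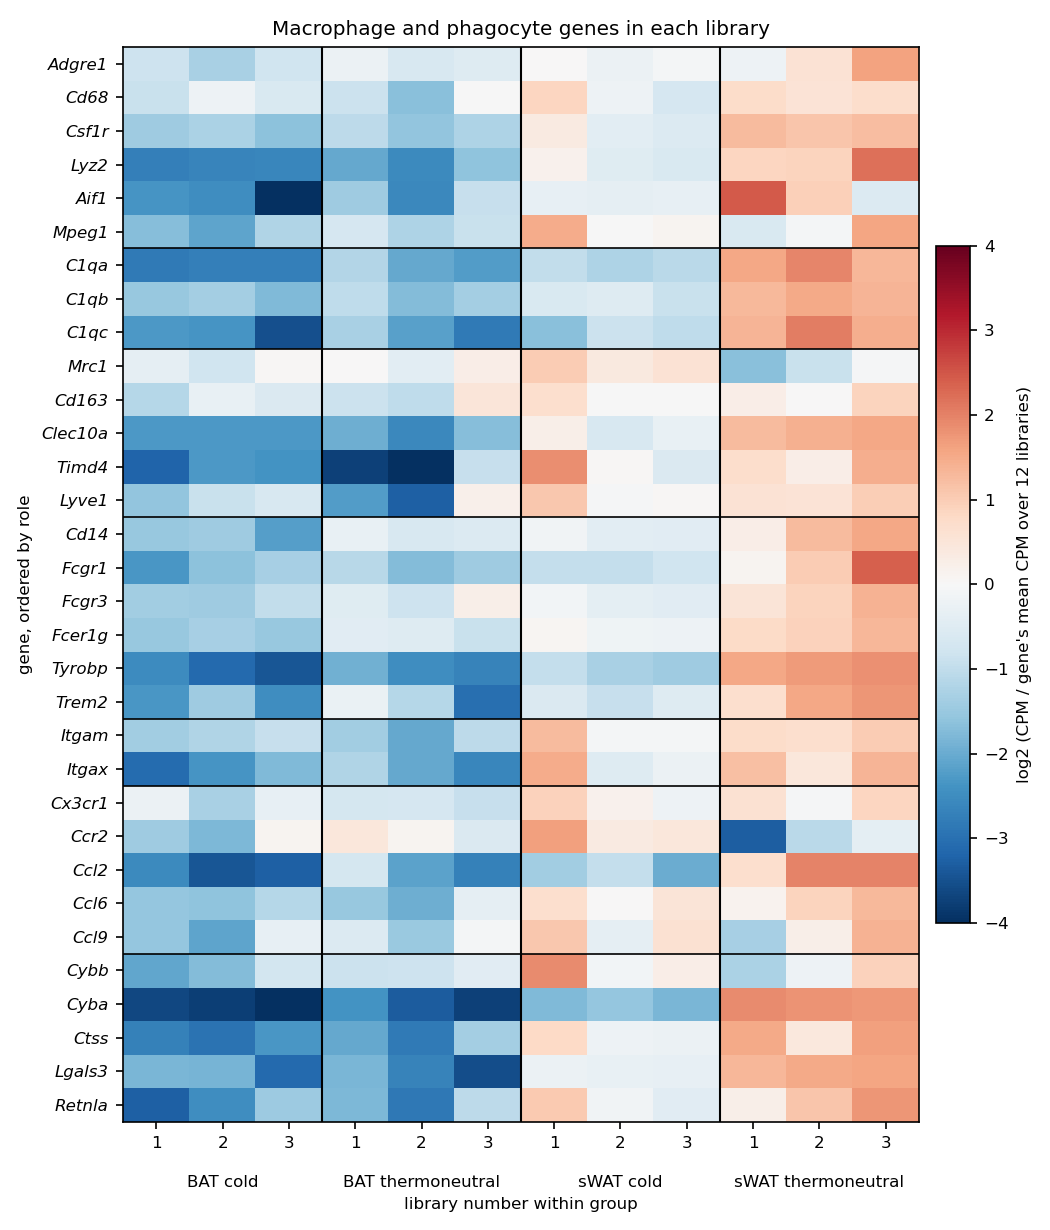
Each row is 1 of the 32 members and each column 1 of the 12 libraries, with colour for log2 of CPM over the gene's own mean CPM across libraries; black lines separate groups and roles. The sWAT thermoneutral columns are the reddest for most genes, with exceptions that include Mrc1, Ccr2 and Cybb, and the BAT columns are mostly blue.

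In sWAT, most of the called macrophage and phagocyte genes were lower in cold. Of the 32 members, 16 fell, 2 rose (Mrc1 and Ccr2) and 14 were not called, where 24.1% of all 15731 genes tested fell, 25.1% rose and 49.2% were called in either direction. All 3 C1q subunits and all 6 innate and Fc receptors and adapters fell. The median log2 fold change was −1.09 over the members and 0.0049 over all genes. Summed over the 32 members, the level was 868, 538 and 518 CPM in cold libraries, against 1600.0, 1799 and 2419 CPM in thermoneutral libraries. Fewer macrophages and less of these RNAs per macrophage cannot be told apart in bulk tissue. With the correction for GC content and length, 15 members fell and 0 rose, and 13 of the 18 calls kept their direction and side of the threshold. Leaving out 1 library at a time gave 14 to 22 members lower and 0 to 2 higher, with 22 lower without cold library 1.

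All 3 subunits of C1q, which macrophages secrete and which tags debris and immune complexes, fell. C1qa had 31.1, 25.8 and 28.8 CPM in cold libraries, against 178, 237 and 152 CPM in thermoneutral libraries. C1qb had 33.2, 34.7 and 27.1 CPM in cold libraries, against 123, 142 and 129.9 CPM in thermoneutral libraries. C1qc had 20.9, 36.4 and 33 CPM in cold libraries, against 168, 271 and 182 CPM in thermoneutral libraries. Every cold library lay below every thermoneutral library for each subunit. The log2 fold changes were −2.72 ± 0.28 for C1qa (adjusted p = 0.000332), −2.06 ± 0.23 for C1qb (adjusted p = 0.00043) and −2.79 ± 0.32 for C1qc (adjusted p = 0.000461). They were smaller with the GC and length correction, −1.48 (adjusted p = 0.0103), −1.12 (adjusted p = 0.0157) and −1.93 (adjusted p = 0.00125), and stayed past the threshold. The counts of C1qa were 0.629, 0.896 and 1.07 times those of Csf1r in cold libraries, against 1.90, 2.81 and 1.67 times in thermoneutral libraries. This ratio and the later ratios of counts carry no correction for GC content or length.

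Among the receptors, Tyrobp, the adapter that carries signals of Trem2 and related receptors, had the largest fall without the correction, and Fcgr1 with it. It had 14.0, 10.9 and 10.1 CPM in cold libraries, against 79.5, 88.0 and 94.8 CPM in thermoneutral libraries. The log2 fold change was −2.90 ± 0.25 (adjusted p = 0.000218), and −1.93 (adjusted p = 0.00114) with the GC and length correction. Fcer1g, the other adapter, which serves the activating Fc receptors, had 12.1, 10.1 and 9.96 CPM in cold libraries, against 19.4, 21.4 and 28.7 CPM in thermoneutral libraries. Its log2 fold change was −1.11 ± 0.26 (adjusted p = 0.00761), and it was not called with the correction (−0.51, adjusted p = 0.13). The counts of Tyrobp were 1.16, 1.08 and 1.01 times those of Fcer1g in cold libraries and 4.10, 4.12 and 3.30 times in thermoneutral libraries.

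Trem2, a lipid-sensing receptor that signals through Tyrobp, was low everywhere, with 0.760, 0.596 and 0.783 CPM in cold libraries, against 1.81, 3.30 and 3.85 CPM in thermoneutral libraries (log2 fold change −2.06 ± 0.41, adjusted p = 0.0038), and −1.91 (adjusted p = 0.0065) with the correction. Fcgr1, the high-affinity IgG receptor, had 1.17, 1.16 and 1.32 CPM in cold libraries, against 2.47, 4.59 and 11.8 CPM in thermoneutral libraries. The 3 thermoneutral values of Fcgr1 spread widely, and its log2 fold change of −2.38 ± 0.56 (adjusted p = 0.00799) came to −1.53 without thermoneutral library 3 (adjusted p = 0.0195) and to −2.09 (adjusted p = 0.0201) with the correction. Fcgr3, a lower-affinity IgG receptor, had 8.16, 6.65 and 6.42 CPM in cold libraries, against 12.6, 16.3 and 23.0 CPM in thermoneutral libraries (−1.29 ± 0.30, adjusted p = 0.00761), and −1.23 (adjusted p = 0.0149) with the correction. Cd14, the co-receptor for lipopolysaccharide, had 8.77, 7.21 and 7.02 CPM in cold libraries, against 11.6, 23.2 and 28.1 CPM in thermoneutral libraries (−1.45 ± 0.35, adjusted p = 0.00876), and was not called with the correction (−1.1, adjusted p = 0.0578). For all 6 genes of this role, the cold libraries lay below the thermoneutral ones without overlap, as did 15 of the 32 members, where 30.5% of all genes did and 30.1% lay above without overlap.

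The pan-macrophage markers were divided. Csf1r had 49.4, 28.8 and 26.8 CPM in cold libraries, against 93.2, 84.2 and 91.4 CPM in thermoneutral libraries, with no overlap. Its log2 fold change was −1.35 ± 0.30 (adjusted p = 0.0061), and −0.85 (adjusted p = 0.0364) with the correction. Its exons share 873 bases, 15.1% of their length, with Hmgxb3 on the other strand, so its reads are uncertain where the counting setting for strand is not stated. Lyz2, lysozyme M, had 219, 141 and 129 CPM in cold libraries, against 359, 365 and 905 CPM in thermoneutral libraries, of which thermoneutral library 3 was far above the rest. Its log2 fold change was −1.74 ± 0.46 (adjusted p = 0.0134), and −1.14 (adjusted p = 0.0343) without that library, and the call was lost without cold library 3. With the correction it was −1.75 (adjusted p = 0.0182). Reads of Lyz2 can be shared with its near-identical paralog Lyz1, which held 2.68% to 7.09% of the counts of both genes in sWAT. Aif1, an actin-binding protein also called IBA1, had 2.97, 2.92 and 2.94 CPM in cold libraries, against 20.5, 7.18 and 2.52 CPM in thermoneutral libraries. Thermoneutral library 1 was the highest for Aif1, where library 3 was for Lyz2. The Aif1 groups overlapped, and its log2 fold change of −1.78 ± 0.64 (adjusted p = 0.0459) was −0.70 (adjusted p = 0.254) without thermoneutral library 1. The call was also lost without each other sWAT library but thermoneutral library 3, with the correction (−1.30, adjusted p = 0.117) and with the replicate block (−1.31, adjusted p = 0.127).

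Adgre1, which encodes the F4/80 antigen, had 5.04, 4.26 and 4.73 CPM in cold libraries, against 4.30, 7.45 and 15.2 CPM in thermoneutral libraries, and was not called (−0.95 ± 0.44, adjusted p = 0.104) but passed without thermoneutral library 1 (−1.26, adjusted p = 0.0292). Cd68, a lysosomal membrane protein, had 30.3, 14.3 and 10.4 CPM in cold libraries, against 27.7, 24.5 and 26.9 CPM in thermoneutral libraries, and was not called (−0.52 ± 0.39, adjusted p = 0.294) but passed as lower without cold library 1 (−1.11, adjusted p = 0.00477). Mpeg1, a pore-forming protein of phagosomes, had 53.4, 18.9 and 21.0 CPM in cold libraries, against 12.5, 18.0 and 57.8 CPM in thermoneutral libraries. The Mpeg1 groups overlapped fully, with cold library 1 and thermoneutral library 3 high (0.084 ± 0.61, adjusted p = 0.918).

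The scavenger and lectin receptors of resident macrophages moved in both directions. Mrc1, the mannose receptor CD206, was the only member of this role that rose. It had 23.1, 14.9 and 16.9 CPM in cold libraries, against 3.56, 6.16 and 11.0 CPM in thermoneutral libraries, and the groups did not overlap. The log2 fold change of 1.40 ± 0.42 (adjusted p = 0.0219) came to 0.58 (adjusted p = 0.151) with the GC and length correction, and the call was also lost without thermoneutral library 2. Clec10a, a galactose-type lectin also called CD301, fell, with 15.9, 8.64 and 10.9 CPM in cold libraries, against 32.3, 35.7 and 39.6 CPM in thermoneutral libraries (−1.60 ± 0.29, adjusted p = 0.00262), and −1.45 (adjusted p = 0.0052) with the correction. Cd163, the receptor for haemoglobin and haptoglobin, had 19.5, 12.2 and 12.2 CPM in cold libraries, against 14.6, 12.3 and 22.9 CPM in thermoneutral libraries (−0.18 ± 0.33, adjusted p = 0.674). Timd4, a receptor for phosphatidylserine on dying cells, had 20.9, 5.99 and 3.92 CPM in cold libraries, against 9.37, 6.99 and 15.8 CPM in thermoneutral libraries (−0.046 ± 0.61, adjusted p = 0.956). Lyve1, a hyaluronan receptor shared by some resident macrophages and lymphatic endothelium, had 15.8, 7.24 and 7.77 CPM in cold libraries, against 11.3, 11.0 and 15 CPM in thermoneutral libraries (−0.26 ± 0.36, adjusted p = 0.568). For Cd163, Timd4 and Lyve1, cold library 1 was the highest of its group and the groups overlapped, and without that library Timd4 (−1.13, adjusted p = 0.0344) and Lyve1 (−0.74, adjusted p = 0.0436) passed the threshold as lower.

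The chemokine ligand Ccl2 and its receptor Ccr2 went in opposite directions. Ccl2, which draws monocytes into tissue, had 1.00, 1.34 and 0.658 CPM in cold libraries, against 4.12, 10.2 and 10.3 CPM in thermoneutral libraries. It fell 8.2-fold (log2 fold change −3.03 ± 0.46, adjusted p = 0.00117), and −3.54 (adjusted p = 0.000888) with the GC and length correction. Ccr2, carried by those monocytes, had 10.2, 4.14 and 4.42 CPM in cold libraries, against 0.326, 1.53 and 2.45 CPM in thermoneutral libraries, with no overlap. Its log2 fold change was 2.13 ± 0.67 (adjusted p = 0.0276), and 0.59 (adjusted p = 0.371) with the correction, and the call was lost without cold library 1, without thermoneutral library 2 and with the replicate block (2.21, adjusted p = 0.0791). The counts of Ccl2 were 0.0985, 0.324 and 0.149 times those of Ccr2 in cold libraries, against 12.6, 6.70 and 4.20 times in thermoneutral libraries. Cx3cr1, the fractalkine receptor, and the ligands Ccl6 and Ccl9 were not called, with log2 fold changes of −0.15, −0.42 and 0.076. Ccl6 passed as lower with the correction, at −0.89 (adjusted p = 0.0442). The integrin subunits Itgam (CD11b) and Itgax (CD11c), which form complement receptors, were not called either, at −0.27 ± 0.41 and −0.51 ± 0.54. Itgax had 11.6, 2.95 and 3.54 CPM in cold libraries, against 9.72, 5.70 and 10.7 CPM in thermoneutral libraries, so cold library 1 was the high one of its group. Without that library both were called lower, Itgam at −0.89 (adjusted p = 0.0198) and Itgax at −1.44 (adjusted p = 0.00767).

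Of the oxidase pair, only Cyba was called. Cyba and Cybb encode p22phox and gp91phox, the membrane subunits of the phagocyte NADPH oxidase, and Cyba also serves other oxidases in many cell types. Cyba had 11.0, 12.6 and 10.3 CPM in cold libraries, against 138, 129 and 123 CPM in thermoneutral libraries, a fall of 11.5-fold (log2 fold change −3.53 ± 0.24, adjusted p = 0.000174), the largest among the members without the correction. With the GC and length correction it was −2.24 (adjusted p = 0.000849), and the fall of Ccl2 was larger. Cybb had 24.8, 6.26 and 8.21 CPM in cold libraries, against 2.84, 5.87 and 12.8 CPM in thermoneutral libraries, and its groups overlapped (0.88 ± 0.65, adjusted p = 0.284). The counts of Cyba were 0.443, 2.01 and 1.26 times those of Cybb in cold libraries, against 48.7, 22 and 9.57 times in thermoneutral libraries. These ratios are uncorrected and pair unlike transcripts, with 59.3% GC and 744 bases for Cyba and 42.4% GC and 4752 bases for Cybb. Lgals3, the lectin galectin-3, fell, with 24.8, 23.5 and 23.2 CPM in cold libraries, against 73.0, 83.2 and 86.7 CPM in thermoneutral libraries (−1.77 ± 0.22, adjusted p = 0.000539), and −1.14 (adjusted p = 0.0115) with the correction. Ctss, the cathepsin that trims the class II invariant chain, had 68.7, 34.7 and 33.4 CPM in cold libraries, against 113, 53.2 and 122 CPM in thermoneutral libraries. Ctss missed the threshold (−1.07 ± 0.41, adjusted p = 0.0584) and passed it with the correction (−1.40, adjusted p = 0.0318), with DESeq2 (−1.07, adjusted p = 0.0284), with the replicate block (−1.06, adjusted p = 0.0488), without cold library 1 (−1.51) and without thermoneutral library 2 (−1.38). Retnla, a secreted product of alternatively activated macrophages, had 77.6, 33.9 and 27.5 CPM in cold libraries, against 44.3, 81.4 and 128 CPM in thermoneutral libraries (−0.86 ± 0.49, adjusted p = 0.173), and passed as lower without cold library 1 (−1.47, adjusted p = 0.0155).

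**Figure D2:**
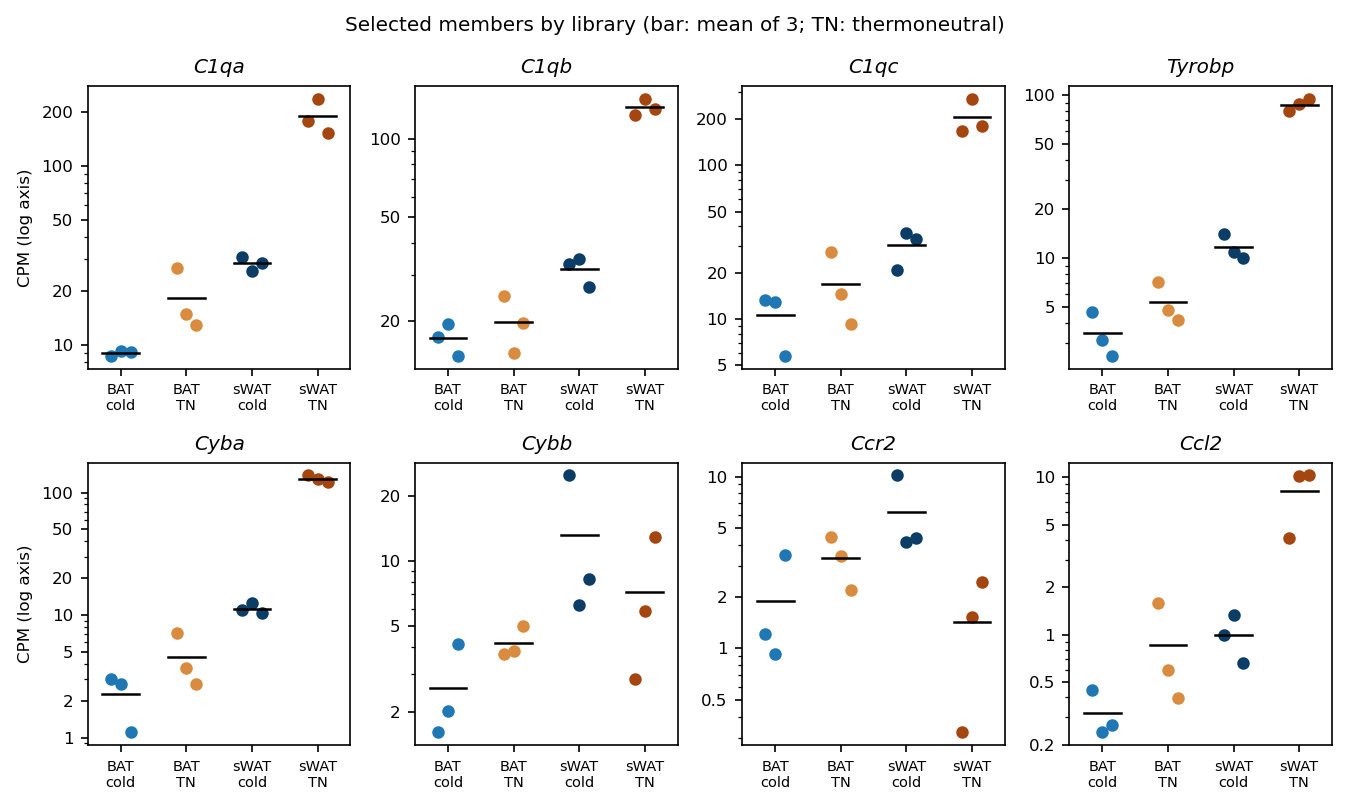
CPM on log axes for 8 members in each library, with points for libraries, bars for means of 3, and groups in the order BAT cold, BAT thermoneutral, sWAT cold and sWAT thermoneutral. C1qa, C1qb, C1qc, Tyrobp, Cyba and Ccl2 are highest in sWAT thermoneutral libraries, while Ccr2 is lower there than in sWAT cold libraries and Cybb overlaps.

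The members' fold changes in sWAT went along with the base composition of their transcripts. Across the 32 members, the log2 fold change correlated with GC content of the longest transcript at Pearson r = −0.757 and with log2 transcript length at r = 0.661. Over all 15331 genes with both values the correlations were −0.490 and 0.181. In BAT the members' correlations were 0.021 and 0.351. These are correlations across genes that share the same libraries, given as a description. Mrc1 and Ccr2, which rose, have 43.4% and 39.4% GC, while C1qa and Cyba have 59.5% and 59.3%. Ccl2, at 44.3% GC, had a log2 fold change of −3.03 without the correction and −3.54 with it.

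**Figure D3:**
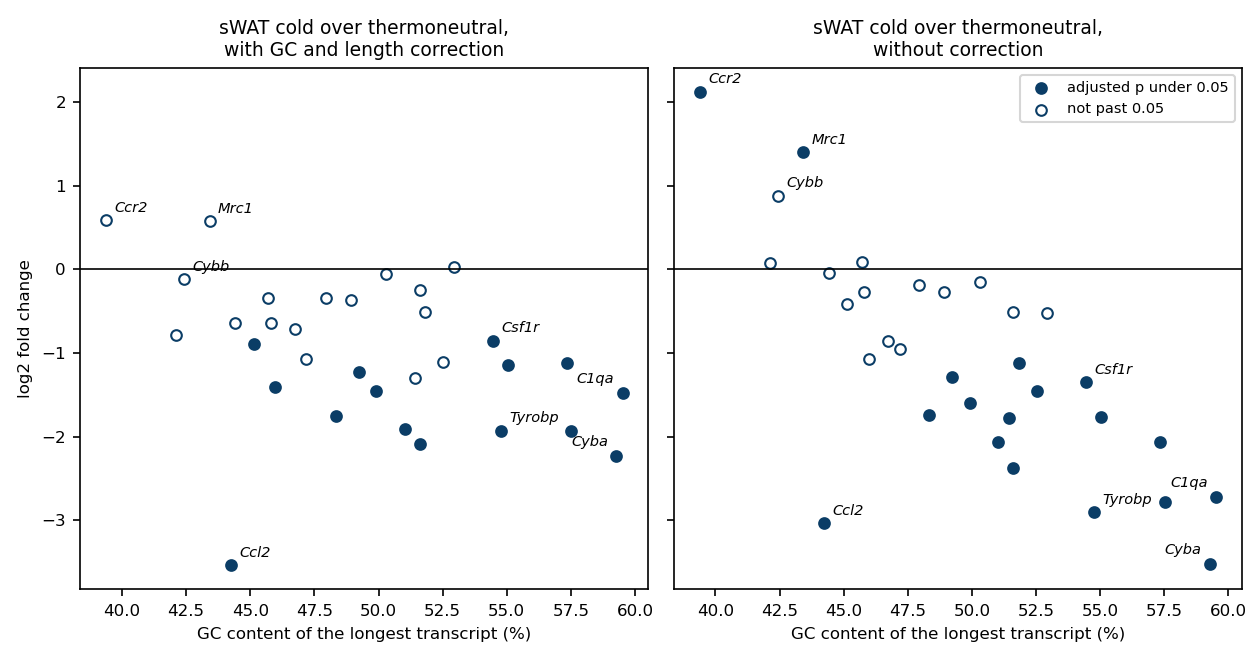
Log2 fold change of cold over thermoneutral in sWAT against GC content of the longest transcript, 1 point per member, with the GC and length correction on the left and without it on the right; filled points have an adjusted p under 0.05. Mrc1 and Ccr2 are filled above 0 without the correction and open with it, and Cyba, Tyrobp and C1qa stay filled below 0.

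In BAT, 0 of the 32 members were called between cold and thermoneutral, where 12.2% of all 14612 genes tested were called, 6.82% as higher and 5.34% as lower. Cold values were mostly lower: 27 log2 fold changes were negative and 5 positive, with a median of −0.46 over the members and −0.040 over all genes. At an unadjusted p under 0.05 there were 4 (Cd14, C1qa, Fcer1g and Fcgr3), DESeq2 called 2 (Cd14 and C1qa), and limma-voom called 1 (Cd14). The cold group lay below the thermoneutral one without overlap for 6 members, where 19.7% of all genes did. Of the genes called in BAT, 56% were higher in cold, and 41.5% with upper quartile scaling, under which 1 member, Cd14, was called lower. Summed over the 32 members, the level was 174, 187 and 191 CPM in cold libraries, against 288, 188 and 297 CPM in thermoneutral libraries.

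Cd14 came nearest to the threshold. It had 3.36, 3.61 and 2.08 CPM in cold libraries, against 7.90, 6.13 and 6.56 CPM in thermoneutral libraries, without overlap (log2 fold change −1.13 ± 0.32, adjusted p = 0.0523). It passed with the replicate block (−1.16, adjusted p = 0.0359), under which 2799 of all genes were called in BAT against 1777 without it, and with the GC and length correction (−1.11, adjusted p = 0.0134). C1qa had 8.69, 9.22 and 9.15 CPM in cold libraries, against 26.9, 14.9 and 12.9 CPM in thermoneutral libraries, without overlap (−0.95 ± 0.32, adjusted p = 0.0878), and passed without thermoneutral library 3 (−1.16, adjusted p = 0.0417). Its partners C1qb and C1qc overlapped between the groups, at −0.15 ± 0.27 (adjusted p = 0.751) and −0.60 ± 0.46 (adjusted p = 0.41). Fcer1g had 3.94, 4.49 and 4.00 CPM in cold libraries, against 8.34, 8.00 and 6.12 CPM in thermoneutral libraries (−0.79 ± 0.28, adjusted p = 0.097). Fcgr3 had 3.36, 3.28 and 4.41 CPM in cold libraries, against 6.34, 4.92 and 10.3 CPM in thermoneutral libraries (−0.91 ± 0.35, adjusted p = 0.129). Lyz2 and Adgre1 are the other members whose cold libraries were all lower, at −0.58 ± 0.28 (adjusted p = 0.215) and −0.45 ± 0.30 (adjusted p = 0.359).

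The remaining BAT members had wide or overlapping groups. Ccl2 had 0.448, 0.241 and 0.269 CPM in cold libraries, against 1.59, 0.594 and 0.398 CPM in thermoneutral libraries (−1.36 ± 0.60, adjusted p = 0.171). Aif1 had 0.717, 0.663 and 0.168 CPM in cold libraries, against 1.38, 0.622 and 1.94 CPM in thermoneutral libraries (−1.30 ± 0.60, adjusted p = 0.192). Both are low in BAT, and their spread within groups is close to the difference between them. The 5 members with positive log2 fold changes were Lgals3 (0.42), Itgam (0.34), Cx3cr1 (0.26), Cd68 (0.21) and Lyve1 (0.082).

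Among the resident-macrophage receptors, BAT values turned on the libraries numbered 3. Timd4 had 0.627, 1.17 and 1.11 CPM in cold libraries, against 0.435, 0.254 and 3.05 CPM in thermoneutral libraries. Lyve1 had 2.51, 4.07 and 4.88 CPM in cold libraries, against 1.59, 0.791 and 8.79 CPM in thermoneutral libraries. Thermoneutral library 3 was the highest BAT library for both, and also for Cd163 at 6.81, 6.05 and 17.0 CPM in the thermoneutral libraries. Without both libraries numbered 3, 9 members were lower in cold (Mpeg1, C1qa, Cd14, Fcgr3, Fcer1g, Ccr2, Ccl2, Cybb and Cyba) and 2 were higher, Timd4 (log2 fold change 1.5) and Lyve1 (1.56), with 44.7% of all 14566 genes called. In that setting each group has 2 libraries. Lyve1 also passed without thermoneutral library 3 alone (1.73, adjusted p = 0.0429), and Ccr2 passed as lower without cold library 3 alone (−1.58, adjusted p = 0.039).

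**Figure D4:**
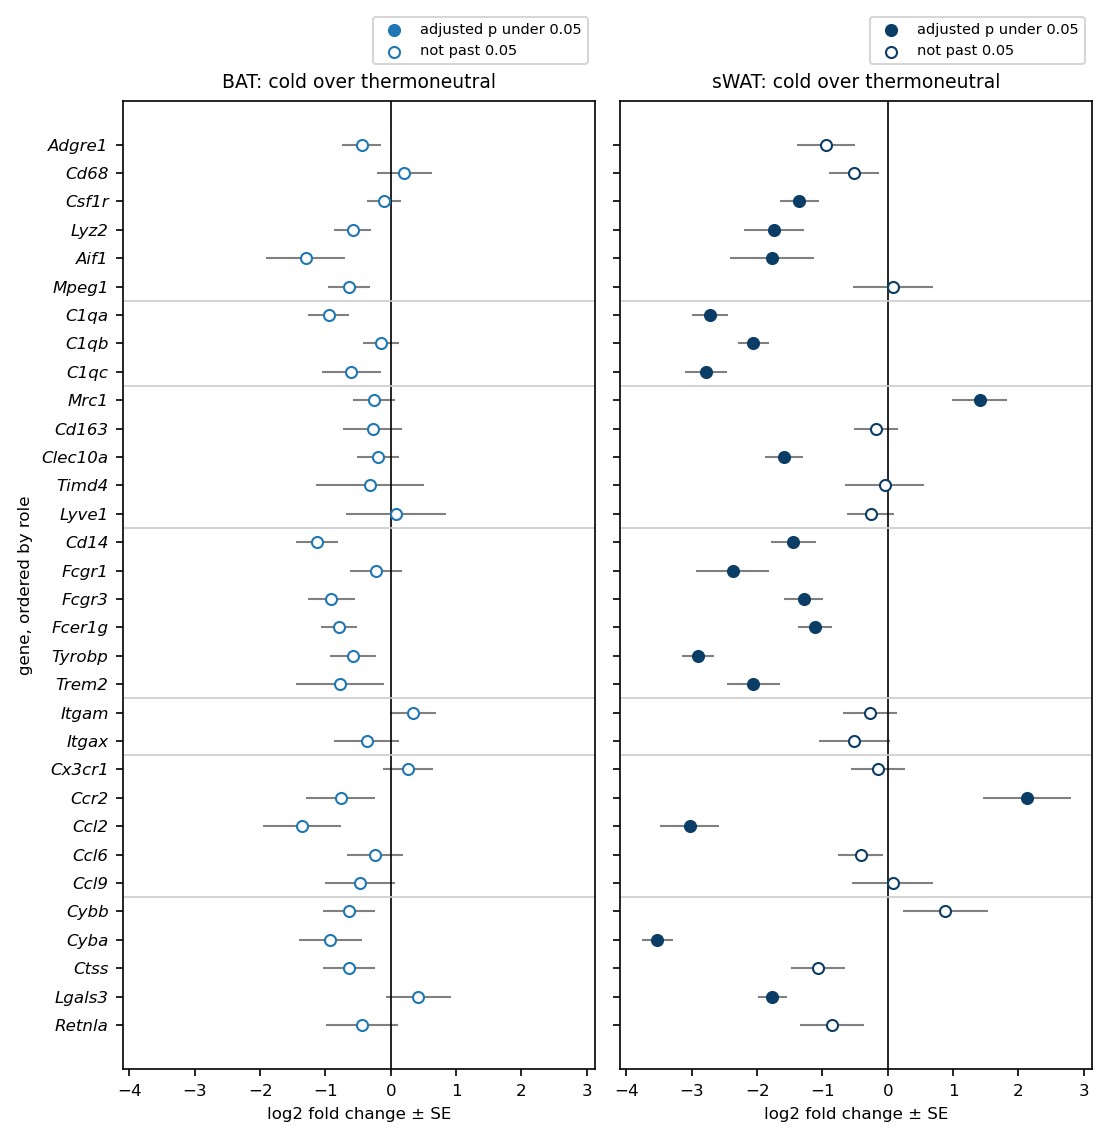
Log2 fold change of cold over thermoneutral, ± SE, for each member in BAT on the left and sWAT on the right, ordered by role; filled points have an adjusted p under 0.05. All BAT points are open, while in sWAT 16 filled points lie below 0 and 2 above it.

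The responses to cold differed between the tissues for 11 members. The difference, response in BAT minus response in sWAT in a fit over 12 libraries, was positive for 9 and negative for 2, where 7.85% of all 16365 genes tested were positive and 17.3% negative. Of the genes called in this comparison, 31.3% were positive, against 41.6% with RLE scaling and 40.3% with totals without mitochondrial genes. All 3 C1q subunits differed, at 1.71 ± 0.40 (adjusted p = 0.0095) for C1qa, 1.85 ± 0.34 (adjusted p = 0.00275) for C1qb and 2.12 ± 0.59 (adjusted p = 0.02) for C1qc. The negative ones were Ccr2 at −2.94 ± 0.93 (adjusted p = 0.0344) and Mrc1 at −1.72 ± 0.55 (adjusted p = 0.0354), the genes that rose in sWAT. Cyba differed by 2.53 ± 0.53 (adjusted p = 0.00561), Tyrobp by 2.27 ± 0.41 (adjusted p = 0.00251) and Lgals3 by 2.13 ± 0.56 (adjusted p = 0.016). Cd14, Fcer1g and Fcgr3, lower in both tissues in their point estimates, differed by 0.27 ± 0.47, 0.26 ± 0.35 and 0.32 ± 0.45, which did not pass. Cyba, Tyrobp, Lgals3, C1qc and Clec10a passed with the GC and length correction as well, and the other 6 did not pass with it. The C1qa difference was then 0.80 (adjusted p = 0.299) and the C1qb difference 1.08 (adjusted p = 0.08). Ccl2 passed with the correction (2.47, adjusted p = 0.0392) and without BAT thermoneutral library 1 (2.52, adjusted p = 0.0246). Lyve1 passed without BAT thermoneutral library 3 (1.95, adjusted p = 0.0366) and Itgam without sWAT cold library 1 (1.40, adjusted p = 0.0395). Leaving out 1 library at a time gave 5 to 10 members positive and 0 to 2 negative. The fewest were 5 without sWAT thermoneutral library 2, and 6 without BAT cold library 2, BAT thermoneutral library 2, sWAT cold library 3 or sWAT thermoneutral library 3.

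BAT held less of these RNAs than sWAT at either temperature. At thermoneutrality, 27 of 32 members were lower in BAT and 0 higher, where 28.8% of all genes were lower and 29.9% higher, 58.7% in all. In cold, 20 were lower and 0 higher, where 11.1% of all genes were lower and 1.19% higher. The median log2 fold change of BAT over sWAT was −2.51 at thermoneutrality, against 0.029 over all genes, and −1.67 in cold, against −0.034 over all genes. In cold the BAT libraries lay below the sWAT libraries without overlap for 30 members, where 21.8% of all genes did so. The count in cold depended on single libraries: it was 9 to 22 when 1 library was left out, with 9 without BAT cold library 1 or sWAT cold library 1 and 10 without BAT cold library 2.

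Ctss, Clec10a and Lyz2 were lower in BAT at both temperatures. Ctss had 6.05, 5.09 and 7.87 CPM in BAT cold libraries, against 68.7, 34.7 and 33.4 CPM in sWAT cold libraries (−2.85 ± 0.45, adjusted p = 0.000812). Clec10a had 2.73, 2.74 and 2.72 CPM in BAT cold libraries, against 15.9, 8.64 and 10.9 CPM in sWAT cold libraries (−2.11 ± 0.30, adjusted p = 0.000361). Lyz2 had 29.3, 31.8 and 32.5 CPM in BAT cold libraries, against 219, 141 and 129 CPM in sWAT cold libraries (−2.39 ± 0.40, adjusted p = 0.00138). At thermoneutrality the differences were −3.23 ± 0.45, −3.45 ± 0.31 and −3.48 ± 0.42 for the same genes (adjusted p = 6.5e-05, 3.12e-06 and 2.22e-05). Cybb, Itgam, Mpeg1, Retnla and Timd4 were called lower in BAT in cold and were among the 11 members not called without sWAT cold library 1, with log2 fold changes of −1.26, −0.87, −1.45, −1.70 and −2.12 in that setting. The members not called at thermoneutrality were Mrc1, Ccr2, Cd163, Ccl9 and Cybb. Of these, Cd163 (−0.92), Ccl9 (−1.96) and Cybb (−1.76) passed as lower in BAT with the GC and length correction, and Mrc1 passed as higher in BAT without sWAT thermoneutral library 3 (1.21, adjusted p = 0.018). The correction lost Cd68 at thermoneutrality (−0.90, adjusted p = 0.134) and C1qb in cold (−0.75, adjusted p = 0.103), and gained Ccl9, Ccr2 and Mrc1 in cold. At thermoneutrality it moved Cyba from −4.85 to −3.51 and Ctss from −3.23 to −3.84. The sWAT thermoneutral libraries, unlike the rest in composition, enter that comparison.

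Per kilobase of exon, the order of the levels was led by Lyz2 in all 4 groups. It averaged 23.7 ± 1.29 CPM per kilobase in BAT cold, 36.9 ± 11.4 in BAT thermoneutral, 124 ± 37.3 in sWAT cold and 413 ± 238 in sWAT thermoneutral libraries (SD, n = 3 each). In BAT cold, C1qb at 15.9 ± 2.17 and Retnla at 13.5 ± 8.32 followed, and these neighbours did not differ beyond their spread. In sWAT cold, Retnla at 77.3 ± 45.5 and Ctss at 33.6 ± 14.7 followed, again with overlapping ranges. In sWAT thermoneutral libraries C1qa was next at 182 ± 41.5, with Retnla at 141 ± 70.3, Tyrobp at 131 ± 11.5 and Cyba at 125 ± 7.50 close together. Trem2 was the lowest in 3 groups, at 0.0571 ± 0.0245 in BAT cold, 0.107 ± 0.0811 in BAT thermoneutral and 0.144 ± 0.0206 in sWAT cold libraries. In sWAT thermoneutral libraries Ccr2 was lowest, at 0.212 ± 0.157.

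Other genes of macrophage biology were counted in 12 lists. Values of these lists are from the main fit, without the GC and length correction. The shares to set beside each count are those of all genes tested. In sWAT 25.1% rose and 24.1% fell, and in BAT 6.82% rose and 5.34% fell. In sWAT the 4 NADPH oxidase partners all fell, with the cytosolic subunits Ncf4 at −2.09 and Ncf1 at −1.54 (median −1.70). In BAT 0 of the 4 were called (median −0.53), with Rac2, the GTPase of the oxidase, at −0.63. Of 15 myeloid transcription factors and growth factor signals, 7 fell and 1 rose in sWAT (median −0.99). They included Spi1 at −2.17, Irf8 at −2.29 and the GM-CSF receptor chain Csf2ra at −2.55. In BAT the median of the list was −0.15.

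Lysosomal genes that were called in BAT were higher in cold. Of 17 phagolysosome genes tested, 7 rose and 0 fell in BAT cold (median 0.65), among them the cathepsin Ctsz at 3.34, the acid lipase Lipa at 2.18 and the protease Lgmn at 1.54. Ctsz averaged 1835 ± 346 CPM in BAT cold and 188 ± 5.48 CPM in BAT thermoneutral libraries (SD, n = 3 each). In sWAT 5 of 17 rose and 5 fell (median 0.14), with Lipa at 2.79, Lamp2 at 1.68 and Cd63 at −1.58. Of 12 lipid-associated macrophage genes, 3 rose in BAT (median 0.90; Plin2 at 2.11, Abcg1 at 1.84 and Lipa). In sWAT 6 rose and 1 fell (median 0.69; Cd36 at 3.85, Lipa, and Abcg1 at −1.66). Plin2, Lipa and Cd36 are also expressed by adipocytes. Which cells held the RNAs of any list, Ctsz among them, was not tested. Summed over the 32 members, the mean was 184 CPM in BAT cold libraries.

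Antigen presentation and cytokine genes were lower in cold where they were called, with 1 exception in sWAT. Of the dendritic cell and antigen presentation genes, 3 of 12 fell in BAT (median −1.1; H2-DMb1 at −1.54, H2-Aa at −1.43, H2-DMa at −1.15). In sWAT 8 of 13 fell and 1 rose (median −1.89; Batf3 at −4.02, H2-Eb1 at −2.35, H2-DMb1 at −2.05). Of the inflammatory cytokines and chemokines, 2 of 7 fell in BAT (median −0.97; Ccl5 at −2.04, Cxcl10 at −1.68), with low means of 0.456 and 0.651 CPM in cold. In sWAT 6 of 12 fell (median −1.40; Ccl8 at −2.84, Ccl5 at −1.97, Ccl4 at −2.04). Of the monocyte genes, 2 of 8 fell in BAT (median −0.39; Nr4a1 at −2.45, Ly6c2 at −1.42) and 2 of 9 in sWAT (median −0.33; Hp at −2.07, Plac8 at −2.75). The sWAT count is near the 24.1% of all genes that fell there. In BAT cold and thermoneutral libraries Ly6c2 averaged 0.555 and 1.54 CPM, and Nr4a1 40.9 and 232 CPM. Hp averaged 344 and 1442 CPM in sWAT cold and thermoneutral libraries. Which cells held these RNAs was not tested.

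The other lists had more calls in sWAT than in BAT, as did all genes tested, at 49.2% against 12.2%. Of the complement genes other than C1q, 1 of 13 rose in BAT (median −0.29), C3, the central complement component, at 1.52, and 6 of 13 fell and 1 rose in sWAT (median −0.64; Cfp, or properdin, at −2.72, C2 at −2.04, Cfb at −1.46). Of the Fc and ITAM signalling partners, 0 of 15 were called in BAT (median −0.56; 3 at an unadjusted p under 0.05) and 6 of 15 fell in sWAT (median −1.05; Vav1 at −2.29, Fcrls at −1.43). Of the uptake and efferocytosis receptors, 0 of 13 were called in BAT (median −0.14; 0 at an unadjusted p under 0.05; Cd36 at 0.77), and 6 of 15 fell and 1 rose in sWAT (median −0.76; Cd209f at −2.45, Stab1 at −1.56, and Cd36, which rose). Of the alternative activation genes, 1 of 8 fell in BAT (median −0.078; Klf4 at −1.78), and 5 of 11 fell and 2 rose in sWAT (median −0.71; Il4ra at −2.13, Socs3 at −2.24, Pparg at 2.33). Of the pan-leukocyte genes, 1 of 10 fell in BAT (median −1.02; Cytip at −2.12) and 5 of 10 fell in sWAT (median −1.06; Coro1a at −3.35, Cytip at −2.12, Laptm5 at −1.80). In BAT cold libraries Cytip averaged only 0.573 CPM. Ptprc, the leukocyte antigen CD45, was not called in either tissue, at −1.14 ± 0.36 in BAT and 0.55 ± 0.53 in sWAT. C3 averaged 1082 CPM in BAT cold libraries and Pparg 187 CPM in sWAT cold libraries, and which cells held these RNAs was not tested.

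Markers of other cell types moved beside the members, and their part in the results was not tested. Their values are also from the main fit, without the GC and length correction. Their counts stand beside the shares of all genes tested. In sWAT 24.1% were lower and 25.1% higher in cold, and in BAT 5.34% were lower and 6.82% higher. The 15 lymphocyte markers summed to 3.98 to 6.73 CPM in BAT cold and 8.11 to 11.7 CPM in BAT thermoneutral libraries, with 1 of 13 lower (Cd3g at −1.97, with a mean of 0.259 CPM in cold). In sWAT they summed to 220 to 698 CPM in cold and 819 to 1128 CPM in thermoneutral libraries, with 7 of 15 lower (Lck at −2.49, Cd79b at −2.01, Cd5 at −2.71), and cold library 1 was the high one of its group. Neutrophil markers summed to 3.30 to 5.48 CPM in BAT cold and 4.27 to 6.61 CPM in BAT thermoneutral libraries. In BAT 1 of 3 was lower (Cxcr2 at −1.81), while the median of the 3 was 0.64. In sWAT they summed to 6.27 to 10.9 CPM in cold and 18.0 to 38.6 CPM in thermoneutral libraries, with 8 of 10 lower (Camp at −6.65, Mpo at −4.61, Elane at −2.79). These 3 averaged 0.0598, 0.037 and 0.333 CPM in sWAT cold libraries, so the sizes of their fold changes rest on low counts. Ly6g was at 0 counts in all BAT and sWAT cold libraries. Eosinophil markers summed to at most 2.89 CPM in any library, a value of sWAT cold library 1. Epx was at 0 in all BAT and sWAT cold libraries. In sWAT 2 eosinophil markers were tested, with a median of −0.063, and 1 was called lower, Prg2 at −1.63. Prg2 averaged only 0.101 CPM in sWAT cold and 0.304 CPM in sWAT thermoneutral libraries.

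Stromal and parenchymal markers moved too. Fibroblast and progenitor markers summed to 924 to 1515 CPM in sWAT cold and 2730.2 to 4467 CPM in sWAT thermoneutral libraries. Of these markers 3 of 8 were lower (Col1a1 at −2.64, Col3a1 at −2.10, Pi16 at −1.08), while the list median was 0.16. Col3a1 averaged 496 CPM in sWAT cold and 2131 CPM in sWAT thermoneutral libraries, and Col1a1 152 and 949 CPM. These 2 collagens weigh heavily in the sums. Blood endothelium markers summed to 418 to 538 CPM in sWAT cold and 196 to 334 CPM in sWAT thermoneutral libraries, with 4 of 6 higher (Kdr at 1.51, Emcn at 2.08, Tek at 1.53). Skeletal muscle markers summed to 6954 to 19013 CPM in sWAT cold and 104 to 4609.8 CPM in sWAT thermoneutral libraries, with 5 of 8 higher (Tnnt3 at 4.61, Myh4 at 4.01, Tnni2 at 3.31). Brown adipocyte markers rose for 5 of 6 in sWAT (Elovl3 at 8.47, Dio2 at 7.79, Ppargc1a at 5.98) and 4 of 6 in BAT (Elovl3 at 7.10, Ucp1 at 3.56, Ppargc1a at 2.43). The adipocyte list had 1 of 8 higher in sWAT (Fabp4 at 3.59) with a median of 0.0098. In BAT 0 of 8 were called (5 at an unadjusted p under 0.05, Adipoq at −1.38) with a median of 0.60. Adipoq was at −0.30 in sWAT, and Plin1, a lipid droplet protein, at 0.97 in BAT and −0.22 in sWAT, none of them called. Between tissues, Adipoq was not called (0.55 at thermoneutrality and −0.58 in cold), and Plin1 was lower in BAT at thermoneutrality (−0.96, adjusted p = 0.0473) and not called in cold (0.18). Ucp1 was higher in BAT at thermoneutrality (3.46, adjusted p = 0.0016) and not called in cold (1.23). Ptprc was lower in BAT at both temperatures (−3.29 and −5.03, adjusted p = 0.000157 and 6.25e-05). So were all 15 lymphocyte markers and all 10 pan-leukocyte genes. At thermoneutrality and in cold, the lymphocyte medians were −6.31 and −6.28 and the pan-leukocyte medians −4.56 and −4.69. The members' medians were −2.51 and −1.67, and those of the phagolysosome list −0.59 and 0.23. In BAT, 1 of 8 fibroblast and progenitor markers rose (Pi16 at 1.23), with a list median of −0.070. Of the skeletal muscle markers 2 of 8 fell in BAT (Pvalb at −2.20, Mylpf at −1.66). Blood endothelium had 0 of 6 markers called in BAT (3 at an unadjusted p under 0.05, Kdr at 0.95).

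Among lymphatic endothelium markers, 1 of 6 fell in each tissue, Ccl21a at −1.27 in BAT and −1.29 in sWAT. The list medians were −0.18 in BAT and 0.59 in sWAT. Of the mast cell markers, 0 of 5 were called in BAT (1 at an unadjusted p under 0.05, Kit at −0.70). In sWAT 2 of 5 fell (Cma1 at −2.08, Tpsb2 at −2.15). The mast cell medians were near 0, at 0.025 in BAT and 0.093 in sWAT, so the named genes do not stand for the list. Epithelium markers were not tested in BAT for low counts, and 1 of 2 fell in sWAT (Epcam at −1.65).

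The genes whose pattern over the 12 libraries was most like the members' mean log2 CPM were Dapp1 (Pearson r = 0.995), Tifab (0.992) and Tagap (0.989), given as a description over libraries that fall into separate groups.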

How the data were processed

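The deposited table holds raw counts per gene, whole numbers for 23163 gene symbols in 12 libraries, with 0 columns left without a sample. Per the labels, an Illumina TruSeq kit turned 1000 ng of total RNA into each library, sequenced as pairs of 100 nt reads; STAR, DESeq2 and mm10 are named in the submitters' processing notes. For the counting tool, strand setting and annotation, nothing is given in the sources used here. The members and gene lists were chosen with earlier results of these data known.

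The counts were tested with edgeR 4.0.16 under R 4.3.3 (filterByExpr, TMM scaling, glmQLFit with robust=TRUE, quasi-likelihood test) and Benjamini-Hochberg adjustment over all genes tested, at 0.05. Cold was compared with thermoneutral in the 6 libraries of each tissue, and the other 3 of the 5 comparisons used a fit over all 12. The code was tested on simulated counts. The titles number experiments 1 to 3 in all 4 groups without saying what an experiment shares, and not every same-numbered pair of libraries deviated together, so the replicate block is an alternative. From each of 23 lists, the 3 called genes with the smallest adjusted p are named, or 1 where none was called; Adipoq, Plin1, Ucp1 and Ptprc, and the 3 genes most like the members' mean, are also taken. Some genes that this rule names are not reported here. Alternatives used DESeq2 1.42.0, limma 3.58.1, other scalings and filters, left-out libraries and a GC and length correction by splines. Positions come from GENCODE M21. Beyond the promoter windows on GRCm38.p6, no genome sequence was used. Intervals on shares of counts (Wilson, 95%) are at most 0.0345 percentage points wide and cover counting error only.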

Additional observations from a re-analysis of the deposited data

Results flagged for a closer look

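The response to cold differed between BAT and sWAT for 11 members, by an interaction term over 12 libraries in edgeR's quasi-likelihood test. Below, the difference is the response in BAT minus the response in sWAT on the log2 scale, and the 2 responses come from each tissue's own fit.

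For C1qa the difference was 1.71 ± 0.40 (adjusted p = 0.0095), with responses of −0.95 in BAT and −2.72 in sWAT. For C1qb it was 1.85 ± 0.34 (adjusted p = 0.00275), with −0.15 in BAT and −2.06 in sWAT. For C1qc it was 2.12 ± 0.59 (adjusted p = 0.02), with −0.60 in BAT and −2.79 in sWAT. With the GC and length correction the differences were 0.80 (adjusted p = 0.299) for C1qa, 1.08 (adjusted p = 0.08) for C1qb and 1.37 (adjusted p = 0.0226) for C1qc, so the calls of C1qa and C1qb were lost. The call of C1qc was also lost without sWAT thermoneutral library 2 (1.87, adjusted p = 0.0519).

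The signalling receptors and adapters among them were Tyrobp at 2.27 ± 0.41 (adjusted p = 0.00251), Fcgr1 at 2.08 ± 0.72 (adjusted p = 0.0481) and Csf1r at 1.19 ± 0.37 (adjusted p = 0.0337). Their responses were −0.58, −0.23 and −0.10 in BAT and −2.90, −2.38 and −1.35 in sWAT. The calls of Fcgr1 and Csf1r were each lost without any 1 of 8 of the 12 libraries, Fcgr1 being at 1.25 (adjusted p = 0.124) without sWAT thermoneutral library 3, and with the replicate block Fcgr1 was at 1.81 (adjusted p = 0.0672). With the GC and length correction the differences were 1.52 (adjusted p = 0.00938) for Tyrobp, 1.74 (adjusted p = 0.11) for Fcgr1 and 0.45 (adjusted p = 0.36) for Csf1r. The effectors and lectins were Cyba at 2.53 ± 0.53 (adjusted p = 0.00561), Lgals3 at 2.13 ± 0.56 (adjusted p = 0.016) and Clec10a at 1.34 ± 0.41 (adjusted p = 0.0296). Their responses were −0.93, 0.42 and −0.20 in BAT and −3.53, −1.77 and −1.60 in sWAT. The call of Clec10a was lost without any 1 of 5 of the 12 libraries. With the correction the differences were 1.41 (adjusted p = 0.0162) for Cyba, 1.57 (adjusted p = 0.0273) for Lgals3 and 1.2 (adjusted p = 0.0418) for Clec10a.

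The difference was negative for Ccr2 at −2.94 ± 0.93 (adjusted p = 0.0344) and Mrc1 at −1.72 ± 0.55 (adjusted p = 0.0354), with responses of −0.76 and −0.26 in BAT and 2.13 and 1.40 in sWAT. The call of Ccr2 was lost without any 1 of 7 of the 12 libraries, and Mrc1 was not called when any single library but BAT cold library 3 or sWAT thermoneutral library 3 was left out. With the GC and length correction the differences were −1.59 (adjusted p = 0.101) and −0.91 (adjusted p = 0.109). The sWAT thermoneutral libraries, which differ from the rest in composition, enter all 11 differences, and their part was not tested apart from that correction.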

How the results depend on the processing

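In BAT, 0 members were called lower, against 1 with upper quartile scaling, limma-voom, the replicate block or the GC and length correction, 2 with DESeq2 and 9 without both libraries numbered 3, which also gave 2 higher. All genes called in BAT numbered 1777, against 2806 with DESeq2, 2799 with the replicate block, 3154 with the GC and length correction and 6509 without both libraries numbered 3. In sWAT, 2 members were higher, against 1 with the replicate block and 0 with the GC and length correction. For the difference of responses, 2 members were negative, against 1 with RLE scaling or totals without mitochondrial genes and 0 with the GC and length correction. The other alternatives kept these counts within 1.5 times. Same-numbered libraries did not all deviate together: their deviations from group means correlated at 0.306, 0.067 and 0.289 in BAT and −0.231, 0.187 and −0.312 in sWAT. Not every library correlated best with its own number: BAT thermoneutral library 2 did so with cold library 1 (0.239). Upper quartile scaling moved the median of all genes in BAT to −0.20 from −0.040, and RLE scaling moved it for the difference of responses to 0.032 from −0.122.

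Leaving out 1 library at a time gave 0 to 1 members higher and 0 to 1 lower in BAT, 0 to 2 and 14 to 22 in sWAT, 5 to 10 and 0 to 2 for the difference of responses, 0 to 1 and 23 to 27 for BAT against sWAT at thermoneutrality, and 0 to 0 and 9 to 22 in cold. All genes called ranged over 451 to 2483, 5672 to 8719, 2419 to 5498, 8551 to 10230.0 and 1100.0 to 2239 in the same order of comparisons.

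Directions reversed for some members that were not called. In BAT, without both libraries numbered 3, they were Csf1r (0.019), Cd163 (0.34), Clec10a (0.0089), Timd4 (1.5, which passed) and Ccl6 (0.21). Timd4 was at 0.42 with limma-voom and 0.33 with the replicate block, Lyve1 at −0.079 with upper quartile scaling, and C1qb (0.00058), Ccl6 (0.089) and Retnla (0.053) reversed with the GC and length correction. In sWAT, that correction reversed Cd68 (0.032), Mpeg1 (−0.34), Ccl9 (−0.79) and Cybb (−0.12), and Ccl9 was at −0.0025 with upper quartile scaling. For the difference of responses, Aif1 (−0.18) and Timd4 (0.66) reversed with limma-voom, and Cd163 (0.44), Timd4 (1.47) and Itgax (−0.57) without both BAT libraries numbered 3. The correction reversed Timd4 (0.55), Cd14 (−0.050), Fcer1g (−0.098), Itgax (−0.38) and Ccl9 (0.30) there, and Mrc1 (−0.22) and Ccr2 (−0.31) for BAT against sWAT at thermoneutrality. Reversals with 1 library left out, as ranges, were also of uncalled members. In BAT, they were Cd68 −0.10 to 0.73, C1qb −0.29 to 0.00039, Cd163 −0.53 to 0.34, Timd4 −0.79 to 1.56, Lyve1 −0.38 to 1.73, Fcgr1 −0.46 to 0.0078, Itgax −0.73 to 0.035, Ccl6 −0.52 to 0.35, Retnla −1.05 to 0.056. In sWAT, they were Mpeg1 −0.58 to 1.034, Cd163 −0.46 to 0.13, Timd4 −1.13 to 0.36, Cx3cr1 −0.55 to 0.082, Ccl9 −0.36 to 0.90. For the difference of responses, they were Adgre1 −0.17 to 0.78, Aif1 −0.64 to 1.02, Mpeg1 −1.71 to 0.11, Cd163 −0.44 to 0.47, Timd4 −0.71 to 1.56, Lyve1 −0.027 to 1.95, Itgax −0.20 to 1.25, Ccl6 −0.16 to 0.72, Ccl9 −1.42 to 0.0024, Retnla −0.095 to 1.2. For BAT against sWAT in cold, they were Cd68 −0.96 to 0.10. The cause of these changes was not tested.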
